A study of Mus musculus with 10 samples.

Results

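RNA that came down with the protein 4E-T was compared with the total RNA of the same tissue in 3 numbered pairs of arrays from mouse embryonic cortex. Each pair set a 4E-T precipitate (4ET-IP sample 1, 2 or 3) against the input sample of the same number, so 6 of the 10 arrays of the series entered the comparison. The 4 arrays left out were input 4 and the 3 control IgG precipitates, numbered 2 to 4, whose values are given only as background. All samples came from cortices of CD1 embryos at embryonic days 12 to 13, with no genetic or drug treatment named in the labels. The design text calls the samples biological replicates with corresponding inputs, but the number of embryos behind each sample was not given, so p-values measure the spread between these samples. RNA was precipitated with the Magna RIP kit, amplified with the NuGEN Pico protocol and hybridised to Affymetrix Mouse Gene 2.0 ST arrays.

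4E-T, the product of Eif4enif1, binds the cap-binding protein eIF4E and keeps it from recruiting the ribosome. It is a component of P-bodies, cytoplasmic granules in which repressed mRNAs are held together with the decapping and deadenylation machinery. In the embryonic cortex, radial glial precursors give rise to intermediate progenitors and neurons under the control of proneural transcription factors and of signals such as Notch. The question asked here of every gene was whether its RNA held a larger or a smaller part of the 4E-T precipitate than of the tissue RNA.

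Values are log2 intensities after RMA, a procedure that corrects background, equalises the distributions of arrays and summarises the probes of a probe set. A difference of 1 on this scale is a 2-fold change in relative level. Because distributions were equalised, the total amount of RNA recovered with the antibody is not in the values, and a positive difference means a larger share only relative to other RNAs. Tissue was used whole, so a lower level in fewer cells cannot be told apart from less RNA per cell. Input 1 and 4E-T 1 lay on a lower scale, with medians over all probe sets of 3.54 and 3.52, against 4.33 to 4.54 on the other 8 arrays. Both arrays of pair 1 share that scale, and the differences within pairs had medians over all genes of 0.00, 0.06 and 0.02. Exactly equal values in both arrays were found for 1936 genes in pair 1, 14 in pair 2 and 1 in pair 3. The 0.00 of pair 1 is to be read with these ties, whose origin was not tested. The input expressed the genes of the labelled tissue, as Sox2 reached 9.12, 9.82 and 9.58 and Tbr1, Eomes and Pax6 were measured as well, while the 36 Hox genes, which mark more caudal tissue, had a median level of 3.35 over the 6 arrays.

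Of 22180 genes tested, 4608 were called at an adjusted p under 0.05, in a limma fit with the pair as a term and Benjamini-Hochberg adjustment over all genes. This is 20.8% of the genes tested. Of these, 2502 were higher with 4E-T (11.3%) and 2106 were lower (9.5%). Differences passed 2-fold in 516 of the higher and 498 of the lower genes, and the smallest difference called was 0.42. Of the called genes, 4598 had the same sign in all 3 pairs. The differences of the pairs correlated across genes at 0.61 for pairs 1 and 2, 0.59 for pairs 1 and 3 and 0.72 for pairs 2 and 3, over 22180 genes that are not independent replicates. Without pair 3 the count fell to 3001 genes, and without the pair as a term, which puts the lower scale of pair 1 into the error, limma called 0 genes, with 2667 at an unadjusted p under 0.05.

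**Figure D1:**
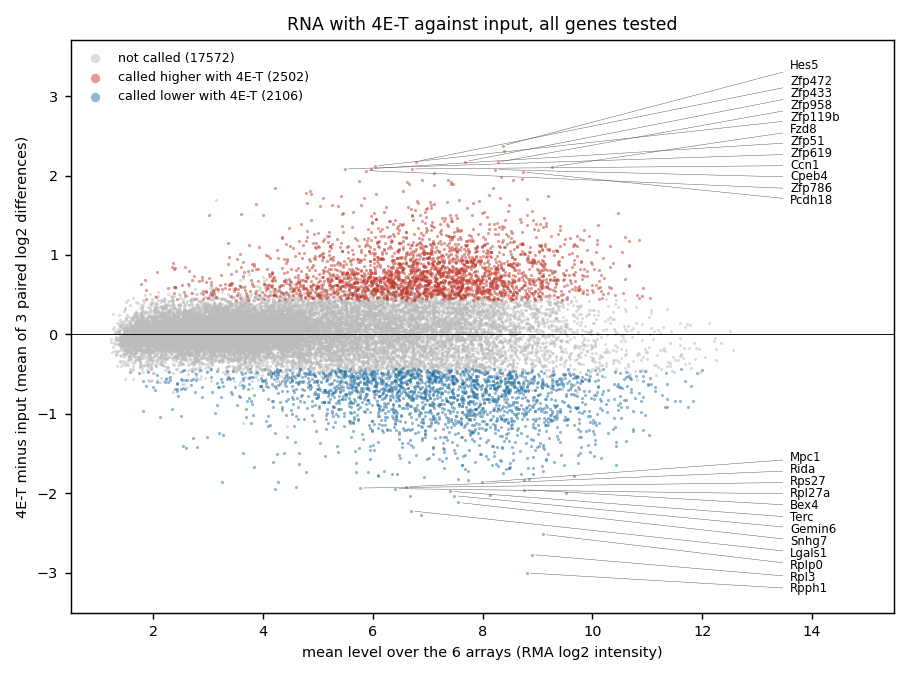
Mean paired difference of 4E-T minus input (log2, vertical) against the mean level over the 6 arrays (RMA log2 intensity, horizontal) for the 22180 genes tested. Red points are the 2502 genes called higher, blue points the 2106 called lower and grey points the rest, and lines lead to the 12 highest and 12 lowest named genes. Few genes with a mean level under 4 were called.

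The share of genes called depended on the level. At a mean level up to 4, 1.24% of 8786 genes were called higher and 1.29% lower. Between 8 and 10 these shares were 25.8% and 26.5% of 2218 genes. Above a level of 10, 32.5% of 326 genes were lower and fewer were higher, and their median difference was -0.30.

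The ends of the distribution held different kinds of genes. The 12 highest named genes were Hes5, Zfp472, Zfp433, Zfp958, Zfp119b, Fzd8, Zfp51, Zfp619, Ccn1, Cpeb4, Zfp786 and Pcdh18, with differences from 2.37 down to 2.05. Of them 7 encode C2H2 zinc finger proteins, which bind DNA through repeated fingers, and many of them act as transcriptional repressors. The 12 lowest were Rpph1, Rpl3, Rplp0, Lgals1, Snhg7, Gemin6, Terc, Bex4, Rpl27a, Rps27, Rida and Mpc1, with differences from -3.00 to -1.86. Of these, 4 encode proteins of the cytosolic ribosome, and Rpph1, Terc and Snhg7 are noncoding. Each of these 24 genes kept its call when any 1 pair was left out. They were picked as the ends of the same comparison, so this is no independent support. Each such limma fit rests on 2 pairs and estimates its variances anew, so its adjusted p-values are not comparable between fits. That of Rpph1 was 0.00279 without pair 1, 1.2e-20 without pair 2 and 9.79e-05 without pair 3.

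Hes5, a Notch target that keeps cortical precursors undifferentiated, was the highest gene. Its level was 8.99, 9.99 and 9.67 in 4E-T precipitates 1 to 3 and 6.19, 7.66 and 7.68 in the matching inputs. All 3 precipitates lay above all 3 inputs, although pair 1 was lower on both sides. The mean difference was 2.37 ± 0.17 (SE of the fit, n = 3 pairs), a 5.18-fold higher relative level (adjusted p = 0.000366). In the IgG precipitates Hes5 read 8.15, 7.98 and 8.14, on average 0.47 above the inputs of the same number.

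Rpph1, the RNA subunit of RNase P, which trims the leaders of tRNA precursors in the nucleus, was the lowest gene. It read 6.64, 7.13 and 8.14 with 4E-T against 9.33, 10.81 and 10.77 in the inputs, with no overlap between the groups. The difference was -3.00 ± 0.21 (SE, n = 3 pairs), an 8.01-fold lower relative level (adjusted p = 0.000362). The mean of IgG minus input was -1.15.

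**Figure D2:**
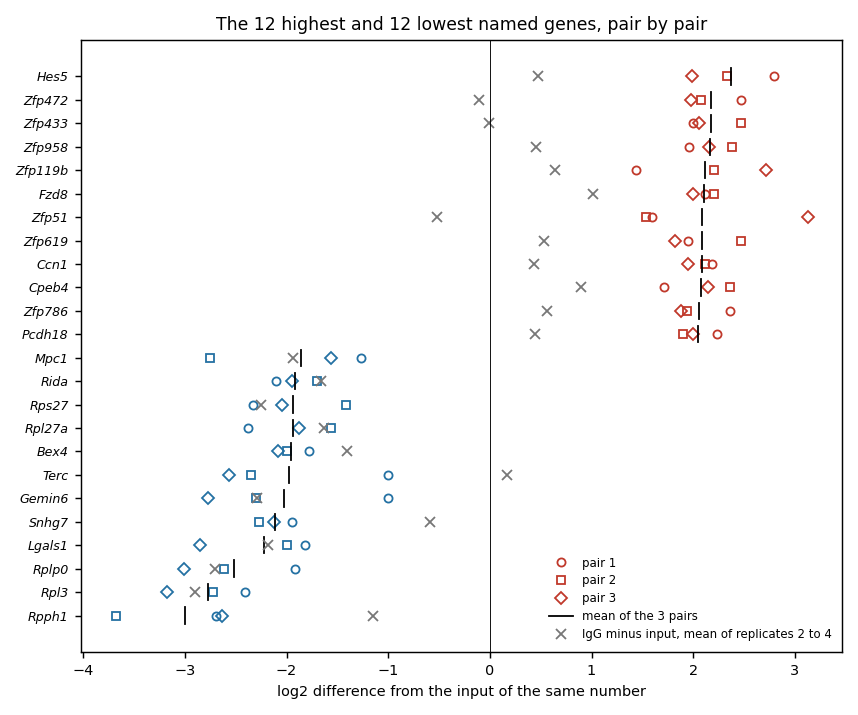
Log2 difference of 4E-T from the input of the same number for the 12 highest (red) and 12 lowest (blue) named genes, with circles, squares and diamonds for pairs 1, 2 and 3 and a black bar for their mean. Grey crosses give the mean of IgG minus input over replicates 2 to 4. Every pair of every gene lies on 1 side of 0, and the crosses lie nearer to 0 for the red genes than for Rpl3, Rplp0 and Rps27.

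Zinc finger genes were over-represented with 4E-T in large numbers. Of 367 genes named Zfp, 188 were higher and 10 were lower, and 96 were more than 2-fold higher. This is 51.2% higher, where 11.3% of all genes were, and their median difference was 0.54 against 0.04 over all genes. The medians of the 3 pairs were 0.52, 0.48 and 0.52, and 167 were called higher without pair 1. Zfp472 read 7.43, 8.10 and 8.08 with 4E-T and 4.96, 6.02 and 6.11 in the inputs. Its groups did not overlap, and the difference was 2.18 ± 0.15, while its IgG arrays, at 6.35, 5.68 and 5.60, averaged -0.10 from their inputs. Zfp433 was 4.52-fold higher at 2.17 ± 0.15. Zfp51 rose by 2.09 ± 0.28, with a wider spread between pairs than the others, from 1.54 to 3.13. The lowest members, Zfp972 and Zfp932, fell by 0.89 and 0.84, and Zfp972 was dim, with no array above 4.09. Genes of the SCAN and BTB families of zinc finger factors showed the same direction, with 28 of 65 higher, led by Zkscan16 at 1.74 and Zbtb41 at 1.70. IgG minus input was 0.54 for Zkscan16 and 1.20 for Zbtb41. Of these, Zkscan16 was called higher against IgG and Zbtb41 was not. Zkscan5 was the 1 member called lower, at -0.66, and it lost its call without pair 1 (adjusted p = 0.0527) or pair 3 (0.072). Array probes can cross-hybridise between closely related zinc finger genes, so single members of this family are less certain than the family as a whole.

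Regulators of cortical development were over-represented too. Of 33 measured proneural and neurogenic factors, 17 were higher (51.5%) and 1 was lower, with a median of 0.47. The title of the study names such a programme, so this list is not independent evidence of its direction. Without pair 1 the count was 13, and without pair 3 it was 10. Neurog2, the proneural factor that drives cortical precursors towards glutamatergic neurons, read 9.92, 10.32 and 10.38 with 4E-T and 8.40, 9.38 and 9.50 in the inputs. The precipitates lay above every input, and the difference was 1.11 ± 0.16 (adjusted p = 0.00215). Neurod4, a related factor of intermediate progenitors, rose by 1.34 ± 0.15. Neurog1 differed by 0.65 and Neurod1 by 0.71, both called, but Neurog1 lost its call without pair 1 (adjusted p = 0.0914) or pair 3 (0.0603), and Neurod1 without pair 3 (0.0566). Tbr1, a factor of early-born deep-layer neurons, differed by 0.67 and lost its call without pair 2 (0.0513). Its IgG minus input was 0.71, and 4E-T minus IgG was -0.11 (adjusted p = 0.775, limma fit of all 10 arrays). Eomes, the factor that marks intermediate progenitors, differed by 0.35 ± 0.15 and was not called (adjusted p = 0.143). Gadd45g, a stress and differentiation gene, was the single member that was lower, at -0.88 ± 0.15.

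Factors that pattern the forebrain had 13 of 26 members higher and 0 lower with a median of 0.49, and 9 were higher without pair 1. Lhx9 (0.95) and Sp8 (0.94) led, and Emx1 (-0.25, adjusted p = 0.33) lay at the other end. IgG minus input was 0.71 for Lhx9, 0.23 for Sp8 and -0.84 for Emx1. Against IgG, Lhx9 and Sp8 were not called, and Emx1 was called higher. Among Sox genes 7 of 19 were higher and 0 lower. Sox2, which maintains neural precursors, read 10.55, 10.79 and 10.61 with 4E-T and 9.12, 9.82 and 9.58 in the inputs. No precipitate overlapped an input, and the difference was 1.14 ± 0.15 (adjusted p = 0.00137). Sox1 rose by 1.13 ± 0.14. Pax6, which with Sox2 defines dorsal radial glia, differed by only 0.29 ± 0.15 (adjusted p = 0.226). Klf and Sp genes had 11 of 25 higher and 0 lower, a count of 7 without pair 3, with Klf10 at 1.15 and Klf6 at 1.10. Forkhead genes had 7 of 43 higher (16.3%, where 11.3% of all genes were) and 0 lower, led by Foxc1 at 1.31. Hox genes stood near the background in this tissue, with 1 of 36 higher (Hoxb8, 0.50) and 1 lower (Hoxa10, -0.48), and both calls were lost without pair 2 (adjusted p = 0.281 and 0.222).

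Several signalling pathways that instruct these precursors had more higher genes than the 11.3% of all genes. In the Notch pathway, in which a ligand on 1 cell binds a receptor on its neighbour, whose cleaved intracellular part then switches on Hes and Hey repressors, 15 of 37 measured genes were higher and 1 was lower, with a median of 0.38. Without pair 1 the higher count was again 15. Among ligands, Jag1 read 6.25, 7.25 and 7.36 with 4E-T and 4.90, 5.46 and 5.18 in the inputs, a difference of 1.77 ± 0.17 with no overlap. Dll1 read 7.69, 7.86 and 7.70 against 6.24, 6.68 and 6.21, a difference of 1.37 ± 0.14 with no overlap. The receptor Notch1 rose by 0.82 ± 0.15, and the targets Hes1 and Hey2 rose by 1.03 ± 0.17 and 1.13 ± 0.17. Psenen, a subunit of the gamma-secretase that releases the receptor's intracellular part, was the 1 member that was lower, at -0.57. It lost its call without pair 2 (adjusted p = 0.119) or pair 3 (0.103). Hes6, which opposes Hes1, differed by -0.35 and was not called (0.16).

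Wnt ligands and their frizzled receptors had 10 of 29 members higher and 0 lower, and these were mostly receptors. Of the 10 frizzled genes 8 were higher, with a median of 0.89, and of the 19 Wnt genes 2, with a median of 0.19. The ligands were Wnt5a (0.82 ± 0.13) and Wnt7a (0.79 ± 0.13), named after their values were seen. The receptor Fzd8 read 10.06, 10.43 and 10.47 with 4E-T and 7.94, 8.22 and 8.47 in the inputs. The 3 pairs were almost equal, and the difference was 2.11 ± 0.13 (adjusted p = 0.000362). Of its IgG arrays, those of replicates 2 and 3 lay between the groups at 9.23 and 9.55, and that of replicate 4, at 8.42, lay within the range of the inputs. IgG minus input averaged 1.01. Fzd1 rose by 1.26 ± 0.13 and Fzd7 by 1.22 ± 0.18. In the rest of the pathway 14 of 44 genes were higher, a count of 8 without pair 3. Axin2, a feedback inhibitor that Wnt signalling induces, rose by 1.43 ± 0.18, and Znrf3, a ligase that removes frizzled receptors from the surface, by 1.11 ± 0.13. IgG minus input was 0.03 for Axin2, which was called higher against IgG, and 0.76 for Znrf3, which was not. Rspo1, which opposes that ligase, was the single member that was lower (-0.69) and lost its call without pair 1 (adjusted p = 0.0794).

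In the FGF pathway 14 of 32 genes were higher and 0 lower. The feedback inhibitor Spry4 read 5.33, 5.64 and 6.30 against 3.30, 4.29 and 4.37 in the inputs, a difference of 1.77 ± 0.17 with no overlap, and its IgG arrays equalled the inputs on average (0.00). Flrt3, a membrane protein that binds FGF receptors and guides cells, rose by 1.75 ± 0.14. Of 50 BMP and TGF-beta genes 20 were higher, a count of 13 without pair 3, and 1 was lower, Chrdl1 at -0.44, whose call was lost without each pair in turn (adjusted p from 0.0821 to 0.225). Smad7, the inhibitory Smad, read 7.05, 7.92 and 7.84 with 4E-T and 5.25, 5.98 and 5.89 in the inputs. The groups did not overlap, and the difference was 1.89 ± 0.13. The receptor Acvr2a rose by 1.42 ± 0.16. The hedgehog pathway had 9 of 17 genes higher and 0 lower, with a median of 0.55. Its co-receptors Boc and Gas1 rose by 1.75 ± 0.14 and 1.28 ± 0.18, and the receptor and target Ptch1 by 1.22 ± 0.14, while IgG minus input was -0.01, -0.10 and 0.86 for the 3 genes.

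Transcripts known for fast turnover, which include the immediate early genes, were higher in 23 of 46 cases and lower in 2, with a median of 0.48 (19 higher without pair 1). Ccn1, a secreted matrix protein induced within minutes of stimulation, read 7.38, 7.91 and 7.97 with 4E-T and 5.19, 5.79 and 6.01 in the inputs, a difference of 2.08 ± 0.13. The precipitates did not overlap the inputs. Jun rose by 1.52 ± 0.17, Socs3, an inhibitor of cytokine signalling, by 1.40 ± 0.15, and Myc by 0.85 ± 0.13. Egr1 differed by 0.64 and lost its call without pair 1 (adjusted p = 0.111) or pair 3 (0.0842). The members that were lower were Gadd45g and Jund, at -0.88 and -0.98, and Jund lost its call without pair 3 (0.103). Genes outside the naming rule, here Socs3, Myc and Egr1, were chosen after their values were seen, as were Fzd7, Ptch1, Notch1 and Hey2 above.

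Cell surface genes of axon guidance and adhesion formed another group. Axon guidance genes had 29 of 67 members higher and 0 lower, with a median of 0.41, and 31 were higher without pair 1. Efna5, an ephrin ligand, rose by 1.47 ± 0.15, Nrp2, a semaphorin receptor, by 1.23 ± 0.17, and Efnb2 by 1.19 ± 0.13. IgG minus input was 0.85 for Efna5, which was not called against IgG, and 0.60 for Nrp2, which was called higher. Sema4c (1.15 ± 0.15), Nrp1 (1.02 ± 0.16) and Robo1 (0.86 ± 0.16) were also higher. Efnb2, Sema4c, Nrp1 and Robo1 were chosen after their values were seen, and the other end of the list held Dscam at -0.31 and Efnb3 at -0.11, neither of them called (adjusted p = 0.161 and 0.663). Of 35 protocadherins, the cadherin-like adhesion proteins of which many come from gene clusters, 19 were higher and 0 lower. Pcdh18, an unclustered member, led with 9.68, 9.84 and 9.75 against 7.44, 7.94 and 7.74, a difference of 2.05 ± 0.14 with no overlap. Clustered protocadherins share exons, and their probe sets may not separate them.

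The machinery to which 4E-T itself belongs held more higher than lower genes. Among 65 genes of P-bodies and mRNA decay, 22 were higher (33.8%) and 5 lower (7.69%), with a median of 0.24. Over all genes these shares were 11.3% and 9.5%. The median level of the list was 7.83, and at levels of 6 to 8, 24.5% of all genes were higher and 17.1% lower. The higher count was 21 without pair 1, 14 without pair 2 and 13 without pair 3. Cpeb4, which binds cytoplasmic polyadenylation elements and controls translation, led with 8.25, 9.74 and 9.81 in the precipitates and 6.54, 7.38 and 7.66 in the inputs. Its difference was 2.08 ± 0.16, the groups did not overlap, and IgG minus input was 0.90. Zfp36l1 (1.52 ± 0.15) and Zfp36l2 (1.33 ± 0.13) bind AU-rich elements and recruit deadenylases, and Tob1 (1.51 ± 0.14) and Cnot4 (1.31 ± 0.13) act with the CCR4-NOT complex. Ddx6, the helicase that binds 4E-T directly, read 9.84, 10.69 and 10.72 against 8.69, 9.60 and 9.39, a difference of 1.19 ± 0.13 (adjusted p = 0.00093). The decapping enzyme Dcp2 rose by 1.05 ± 0.13. The 5 lower genes were Lsm4, Lsm5, Lsm1, Lsm2 and Lsm6, which encode small ring-forming proteins that bind the tails of deadenylated mRNA, and Lsm2, Lsm4, Lsm5 and Lsm6 also serve in the spliceosome. Lsm4 read 8.10, 7.49 and 7.45 with 4E-T and 8.96, 9.32 and 9.63 in the inputs, a difference of -1.62 ± 0.23 with no overlap, and Lsm5 differed by -1.07 ± 0.22. The calls of Lsm1, Lsm2 and Lsm6 (-0.81, -0.55 and -0.52) were lost without pair 3 (adjusted p = 0.0962, 0.111 and 0.258), and those of Lsm2 and Lsm6 also without pair 2 (0.0844 and 0.0877). Tob1, Cnot4, Zfp36l2, Dcp2, Lsm1, Lsm2 and Lsm6 were named after their values were seen.

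The RNA of 4E-T itself, Eif4enif1, read 8.39, 8.69 and 8.53 with 4E-T and 7.66, 8.02 and 7.86 in the inputs. The 3 pairs were nearly equal, with a difference of 0.69 ± 0.13 (adjusted p = 0.00647), and the IgG arrays read 8.39, 8.06 and 7.97. Eif4e, which encodes its partner, read 9.15, 9.58 and 9.44 against 9.15, 9.76 and 9.52, a difference of -0.09 ± 0.13 that was not called (adjusted p = 0.735).

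**Figure D3:**
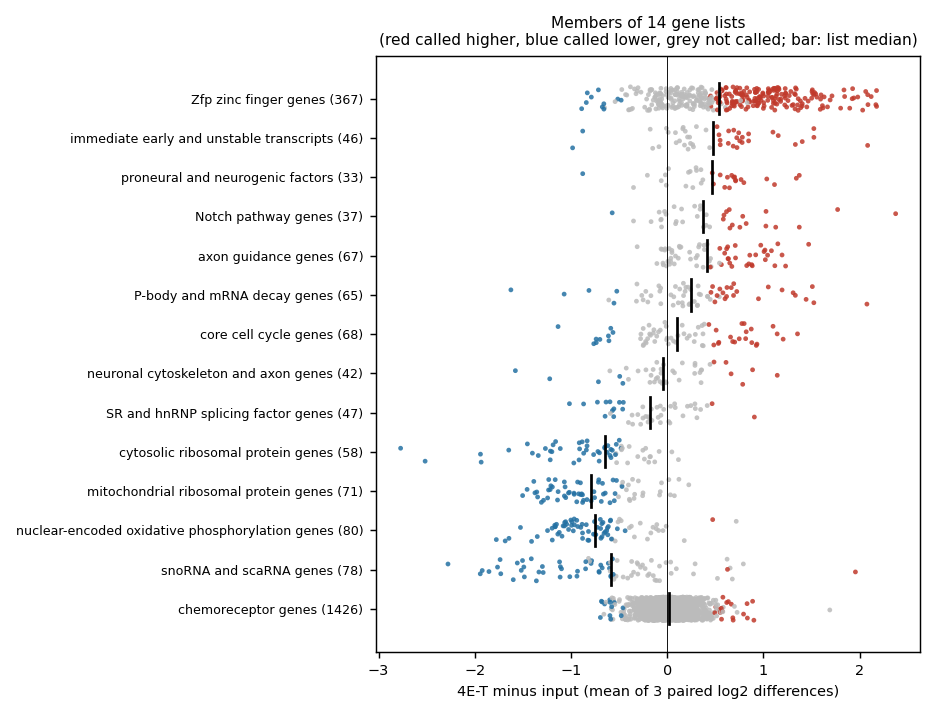
Mean paired difference of 4E-T minus input (log2, horizontal) for each member of 14 gene lists, with the number of members in brackets. Red and blue points were called higher and lower, grey points were not called, vertical position within a row is arbitrary, and black bars are list medians, which run from 0.54 for Zfp genes to -0.79 for mitochondrial ribosomal proteins.

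The genes of the ribosome were under-represented with 4E-T. Of 58 cytosolic ribosomal protein genes 40 were lower and 0 higher, where 9.5% of all genes were lower. Their median was -0.65, the 3 pair medians were -0.50, -0.75 and -0.71, and 39 were lower without pair 1. Rpl3, a protein at the peptidyl transferase centre of the large subunit, read 7.80, 7.59 and 7.14 with 4E-T and 10.21, 10.32 and 10.32 in the inputs. The groups stood far apart, by -2.77 ± 0.17 (adjusted p = 0.000362), a 6.82-fold lower relative level. Rplp0, which forms the base of the stalk that binds elongation factors, read 8.03, 7.86 and 7.63 against 9.95, 10.48 and 10.64, a difference of -2.52 ± 0.20. The depletion was not uniform. Rpl4 and Rpl41 differed by 0.12 ± 0.13 and 0.05 ± 0.13 and were not called (adjusted p = 0.63 and 0.86). Ribosomal protein genes have many processed pseudogenes that share their sequence, so probe sets of single members may also read other transcripts.

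The depletion reached other parts of the translation apparatus. Initiation factors had 17 of 43 members lower and 3 higher, with Eif3i at -1.62 and Eif3f at -1.53, both subunits of eIF3. The lower count was 11 without pair 3. The 3 higher were Eif4h, a helper of the eIF4A helicase (1.00 ± 0.14), Eif5b (0.97, lost without pair 3 at an adjusted p of 0.139) and Eif5a2 (0.49, lost without pairs 2 or 3 at 0.137 each). Elongation and release factors had 7 of 17 lower and 0 higher, with Eef1d at -1.55 and Eef2, the translocase, at -0.82, and 3 lower without pair 3. Of 34 aminoacyl tRNA synthetases 12 were lower and 4 higher, and the lower count was 7 whichever pair was left out. Hars and Rars, which charge histidine and arginine tRNA, both differed by -1.14. The 4 higher were Mars2 and Pars2, which serve mitochondria, at 0.85 and 0.79, Wars at 0.72, and Eprs at 0.65, which lost its call without pair 2 (0.104) or pair 3 (0.179).

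Nuclear genes for mitochondrial proteins were depleted broadly. Of 71 mitochondrial ribosomal protein genes 50 were lower and 0 higher, with a median of -0.79, and 52 were lower without pair 1. Mrpl34 read 8.59, 8.26 and 8.46 with 4E-T and 9.36, 10.16 and 10.30 in the inputs, a difference of -1.50 ± 0.22 with no overlap. Of 80 nuclear-encoded genes of oxidative phosphorylation 60 were lower and 1 was higher, with a median of -0.75. Ndufa7, a subunit of complex I, read 8.04, 7.44 and 7.44 against 9.14, 9.52 and 9.31, a difference of -1.68 ± 0.19. The 1 higher member was Cox8b (0.47), whose call was lost without each pair in turn (adjusted p from 0.067 to 0.149). Mitochondrial import genes had 13 of 23 lower, led by Timm8a1 at -1.24 and Tomm7 at -1.11, and 1 higher, Timm29 at 0.59, which lost its call without pair 2 (0.0695) or pair 3 (0.114). Mpc1, a subunit of the mitochondrial pyruvate carrier, was among the 12 lowest genes at -1.86 ± 0.25. Protein genes of the mitochondrial genome are transcribed and translated inside the organelle. The 10 of them that were measured were all lower in all 3 pairs, where 20.5% of all genes were. Their median was -0.41, and 3 of them were called: ND2 (-0.79 ± 0.15), ND4L (-0.46) and ND4 (-0.44), the last 2 only with all 3 pairs (adjusted p from 0.0555 to 0.255 without 1 of them).

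Several other housekeeping complexes had large shares of lower genes, and others did not. Of 38 proteasome subunit genes 25 were lower, with a median of -0.66. Psmb5, which carries the chymotrypsin-like activity, read 10.01, 9.13 and 9.00 with 4E-T against 11.02, 10.93 and 10.86, a difference of -1.56 ± 0.19. The exception was Psma8, a testis form, at 0.59, which lost its call without pair 1 (adjusted p = 0.0542). Glycolysis genes had 8 of 17 lower and 0 higher, with Aldoc at -1.17 and Ldhb at -1.13, a count of 4 without pair 3. Chaperonin and heat shock genes had 11 of 31 lower and 0 higher, led by Pfdn6, a prefoldin subunit, at -1.72, a count of 7 without pair 3. Genes of the spliceosomal snRNP and SF3 proteins had 12 of 25 lower, with Snrnp25 at -1.67 ± 0.13, and 1 higher, Sf3a2 (0.57), which lost its call without pair 2 (0.0599) or pair 3 (0.0648). RNA polymerase subunits had 11 of 26 lower, with Polr2i and Polr2f at -0.98 each, a count of 6 without pair 3, and 2 higher, Polr2b (0.55) and Polr3f (0.52), both of which lost their calls without pair 3 (0.163 and 0.152). Factors of rRNA processing had 18 of 57 lower, led by Imp3 at -1.52, and 5 higher, which became 9 without pair 1. These 5 were Utp15 (1.05), Utp4 (0.79), Wdr43 (0.74), Urb2 (0.79) and Pes1 (0.78), of which Urb2 and Pes1 lost their calls without pair 3 (0.0563 and 0.135).

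Subunits of the V-ATPase, the proton pump of lysosomes and vesicles, stood near 0 with a median of -0.04. Of 25 genes 4 were lower, a count of 7 without pair 1, 2 without pair 2 and 1 without pair 3. These were Atp6v0d1 (-0.94 ± 0.13), which kept its call without each pair in turn, and Atp6ap1 (-0.60), Atp6v1d (-0.47) and Atp6ap1l (-0.46), which lost theirs without pair 3 (adjusted p = 0.128, 0.138 and 0.224), the last 2 also without pair 2 (0.23 and 0.122), and Atp6v0a2 was higher (0.74 ± 0.16). Genes of actin and its regulators had 6 of 25 lower (24.0%), a count of 2 without pair 3, led by Capzb at -0.85. Their median level was 8.68, and that share was near the 26.5% of all genes at levels of 8 to 10. The 1 higher member was Actr8 (0.47), whose call was lost without pair 2 (adjusted p = 0.291) or pair 3 (0.142). Solute carriers, a large family of membrane transporters, had 49 of 319 higher (15.4%) and 12 lower (3.76%), with a median of 0.10. Over all genes these shares were 11.3% and 9.5%. Their counts without pair 3 were 25 and 4. Slc38a2, an amino acid transporter, led at 1.24 ± 0.14, and Slc25a23 and Slc25a5, carriers of the inner mitochondrial membrane, were lowest at -1.09 and -1.05.

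**Figure D4:**
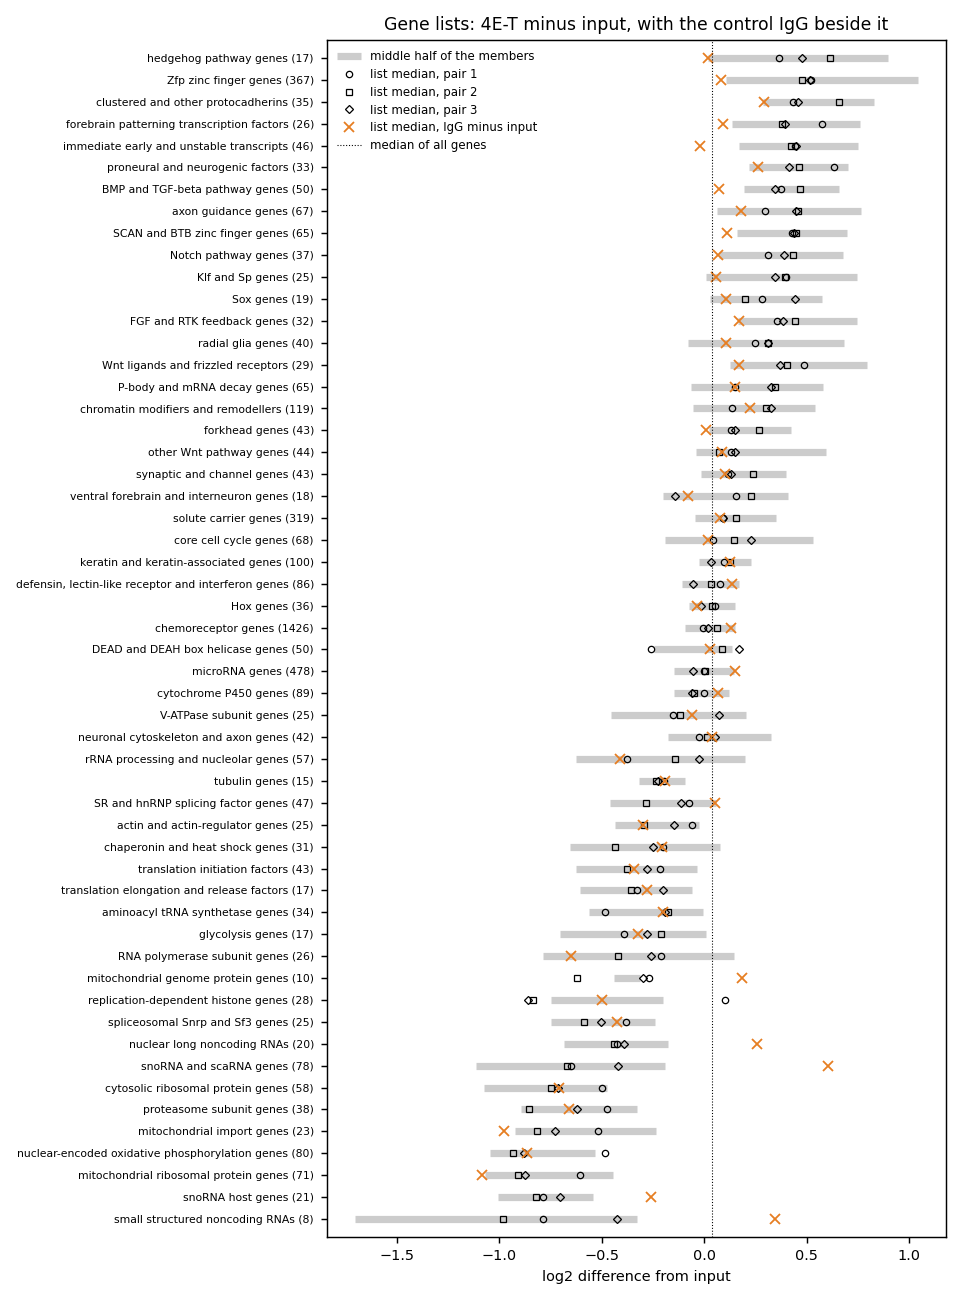
Median log2 difference from input of the members of each gene list, with the number of members in brackets. Open circles, squares and diamonds are 4E-T minus input in pairs 1, 2 and 3, grey bars span the middle of the members' mean differences from the lower to the upper quartile, orange crosses are IgG minus input, and the dotted line is the median of all genes. Crosses lie within the span of the pair symbols for cytosolic ribosomal, oxidative phosphorylation and proteasome genes, below them for mitochondrial ribosomal and import genes, and on the opposite side of 0 for the mitochondrial genome, snoRNA genes and nuclear long noncoding RNAs.

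Noncoding genes differed by class. Among genes annotated as long noncoding RNA, 160 of 1995 were lower (8.02%) and 25 higher (1.25%), where 9.5% and 11.3% of all genes were, and their median was -0.02. Pseudogenes had 21.6% of 218 lower and 1.38% higher, and transcribed pseudogenes 6.31% and 3.32% of 301. Protein-coding genes had 2448 of 18987 higher and 1799 lower. Small nucleolar and Cajal body RNAs, which guide the modification of ribosomal and spliceosomal RNA in the nucleus, had 39 of 78 genes lower and 2 higher, with a median of -0.59. Snora31 read 5.54, 6.37 and 5.33 with 4E-T and 7.65, 8.30 and 8.11 in the inputs, a difference of -2.28 ± 0.18. The IgG arrays were higher than both, at 9.17, 9.43 and 8.39. The count of higher genes was 6 without pair 1. The exceptions with all pairs were Snora73b, which rose by 1.96 ± 0.26 but by a mean of 3.45 with IgG, and Snord90 (0.63), whose call was lost without pair 2 (adjusted p = 0.0657) or pair 3 (0.0812). Genes that carry such RNAs in their introns had 16 of 21 members lower and 0 higher, with Snhg7 at -2.11 ± 0.14 and Taf1d at -1.52 ± 0.14. Whole-gene probe sets do not separate an intronic snoRNA from the spliced host message where both are covered.

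Small structured RNAs were lower in 4 of 8 cases and higher in 0. Besides Rpph1, Terc, the RNA template of telomerase, read 6.08, 6.66 and 6.54 with 4E-T and 7.09, 9.02 and 9.10 in the inputs, a difference of -1.97 ± 0.27. The vault RNA Vaultrc5 differed by -1.62 ± 0.14 and the Y RNA Rny1 by -1.16 ± 0.21. Nuclear long noncoding RNAs had 10 of 20 lower and 2 higher. Miat, a nuclear RNA of neural cells, read 4.19, 5.09 and 4.79 against 5.45, 6.20 and 5.90, a difference of -1.16 ± 0.13. Xist, which coats the inactive X chromosome, fell by 0.64 ± 0.14, and Malat1, a component of nuclear speckles, differed by -0.55 with a call lost without pair 2 (adjusted p = 0.158) or pair 3 (0.154). The 2 higher were Dlx6os1 (0.65, lost without pair 3 at 0.129) and Peg13 (0.60, lost without pair 1 at 0.0562 or pair 2 at 0.0662). Xist and Malat1 were named after their values were seen.

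MicroRNA genes stood near 0 as a list, with 10 of 478 higher, 23 lower and a median of 0.00. A whole-transcript array of this kind reads hairpin precursors or their surroundings rather than mature microRNAs. Mirlet7f-1, a gene of the let-7 family that favours differentiation, read 1.94, 3.32 and 3.43 with 4E-T and 2.99, 5.63 and 4.54 in the inputs. It was lower within each pair, by -1.49 ± 0.24 on average (adjusted p = 0.00298), although the groups overlapped across pairs. Mir1949, at -1.52 ± 0.18, was the lowest of the list, and Mir3098 and Mir200c, at 0.80 and 0.79, were the highest. Mir3098 lost its call without pair 3 (adjusted p = 0.19) and Mir200c without pair 1 (0.0787) or pair 2 (0.0642). RefSeq's table of the GRCm38.p6 build held 426 of the 478 genes, and for 3 of the 4 named here it gives the mature sequences below, shown because the named genes carry different seeds (bases 2 to 8, in capitals).
mmu-let-7f-5p: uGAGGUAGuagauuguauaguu
mmu-let-7f-1-3p: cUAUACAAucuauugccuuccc
mmu-miR-200c-3p: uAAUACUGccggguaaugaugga
mmu-miR-200c-5p: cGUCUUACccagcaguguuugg
mmu-miR-3098-5p: uCCUAACAgcaggaguaggagc
mmu-miR-3098-3p: uUCUGCUGccugccuuuagga

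Several functions held genes called in both directions. Core cell cycle genes had 21 of 68 higher (30.9%) and 9 lower (13.2%), the latter 5 without pair 3. Their median level was 8.27, and at levels of 8 to 10, 25.8% of all genes were higher and 26.5% lower. E2f3, a transcription factor of S phase entry, rose by 1.35 ± 0.13, the replication licensing factor Cdc6 by 1.20 ± 0.17 and Top2a, named after its value was seen, by 1.14 ± 0.19, while Gmnn, which blocks licensing, fell by 1.13 ± 0.13 and Tyms by 0.76. Chromatin modifiers had 44 of 119 higher (37.0%) and 10 lower (8.4%), with a median of 0.24. The higher count was 24 without pair 2 and 22 without pair 3. The histone demethylases Kdm6a (1.13) and Kdm2a (1.11) led, with IgG minus input at 0.48 and 0.73. Kdm6a was called higher against IgG and Kdm2a was not. SR and hnRNP splicing factors had 12 of 47 lower (25.5%), a count of 6 without pair 2 and 5 without pair 3. Their median level was 8.94, and that share was near the 26.5% of all genes at levels of 8 to 10. The 2 higher were Ptbp3 (0.91 ± 0.14) and Ptbp1 (0.47, lost without each pair in turn at adjusted p from 0.0549 to 0.156). DEAD and DEAH box helicases had 10 of 50 lower, a count of 6 without pair 3, and 3 higher, which became 7 without pair 1. Their median difference was 0.00. Their median level was 6.64, and at levels of 6 to 8, 17.1% of all genes were lower and 24.5% higher. The share of helicases called lower was thus near that of all genes at such levels. The higher members were Ddx6, described above, Ddx20 (1.00 ± 0.13) and Ddx18 (0.90), which lost its call without pair 3 (adjusted p = 0.0924). Ddx5, a nuclear helicase of splicing and transcription, read 7.54, 8.97 and 8.96 with 4E-T and 9.46, 10.35 and 10.49 in the inputs, a difference of -1.61 ± 0.15, the lowest of the list.

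Replication-dependent histone genes, whose messages lack a poly(A) tail, split by pair. The list median was 0.10 in pair 1, -0.84 in pair 2 and -0.86 in pair 3. With all pairs, 4 of 28 were lower and 1 was higher, and without pair 1, 17 were lower. H4c9 was lower in all pairs, by -1.53 ± 0.14, and H4c14 by -0.95. H2bc9 (-1.19), H4c17 (-0.88) and the higher member H2bc21 (0.75) lost their calls without pair 3 (adjusted p = 0.117, 0.138 and 0.087).

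Genes of neuronal structure were not set apart as a group. Of 42 genes of the neuronal cytoskeleton and axon, 6 were higher and 5 lower, with a median of -0.05. The adhesion molecule Nrcam rose by 1.14 ± 0.13, with IgG minus input at 0.41, and was not called against IgG. Uchl1, an abundant neuronal deubiquitinase, read 8.87, 7.96 and 8.25 with 4E-T and 9.81, 9.93 and 10.07 in the inputs, a difference of -1.58 ± 0.20, and Stmn2, a tubulin-binding protein of growing axons, fell by 1.22 ± 0.14. Stmn3 was lower as well (-0.71), and Ina (-0.49) and Gap43 (-0.46) lost their calls without pair 2 (adjusted p = 0.129 and 0.148). Dcx and Tubb3, markers of young neurons, differed by -0.10 and -0.08 and were not called (0.706 and 0.812). Of 15 tubulin genes only Tubg1 was called, at -0.66 ± 0.13. The 1426 chemoreceptor genes, which serve as genes with no function in this tissue, had 18 higher (1.26%) and 12 lower (0.842%) with a median of 0.02, and the counts were 37 higher without pair 1 and 27 lower without pair 2.

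Marker lists of neural precursors and neurons held more higher genes than those of other cell types. The share higher was 50% for radial glia and for intermediate progenitors and 55.6% for excitatory neurons, with medians of 0.67, 0.48 and 0.48. For erythroid, endothelial, mural, meningeal and microglia markers it ran from 5.56% to 12.5%, with medians from -0.18 to 0.22. Their levels also differed, as the median level over the 6 arrays was 7.64 to 8.84 for the neural lists and 4.27 to 5.35 for the others, and few dim genes were called. Radial glia markers had 5 of 10 higher (Hes5, Sox2, Hes1, Nes and Emx2) and Vim lower, at -0.70 with a call lost without pair 2 (adjusted p = 0.058). Fabp7, another radial glia marker, differed by -0.31 and was not called (0.157). A longer list of 40 measured radial glia genes had 13 higher (32.5%) and 4 lower (Aldoc, Vim, Psat1 and Hopx), with a median of 0.31. Its lower count was 1 without pair 2. Intermediate progenitor markers had 5 of 10 higher (Neurod4, Neurog2, Neurod1, Btg2 and Insm1) and 2 lower, Gadd45g and Mfap4, the latter at -0.58 with a call lost without pair 1 (0.0881) or pair 3 (0.057). Btg2 (0.69) and Insm1 (0.60) lost their calls without pair 1 (0.0955 and 0.0769). Cortical excitatory neuron markers had 5 of 9 higher and 0 lower. These were Slc17a6, a vesicular glutamate transporter, at 1.01 ± 0.13, Bcl11b at 0.72, Tbr1, and Neurod2 and Neurod6 at 0.63 and 0.48, which lost their calls without pair 3 (0.0536 and 0.102). Among 20 endothelial markers 2 were higher, Kdr (1.29) and Erg (0.96), and 2 lower, Emcn (-0.73) and Cdh5 (-0.44, lost without each pair in turn at adjusted p from 0.0859 to 0.234). Against IgG, Emcn was called higher with 4E-T, as were Kdr and Sox18, and 0 were lower. Among 17 microglia and macrophage markers Cx3cr1 was higher (1.19) and 5 were lower, Tyrobp (-1.47), Cd68 (-0.90), C1qb (-0.72), Aif1 (-0.55) and Fcer1g (-0.52), of which Aif1 and Fcer1g lost their calls without pair 3 (0.153 and 0.0869). Among the other lists, Slc4a1 and Cspg4 were higher (0.85 and 0.57), as was Foxc1, and Dcn, Hbb-bh1 and Hba-x were lower (-0.84, -0.72 and -0.52). Of these, Cspg4 lost its call without pair 3 (adjusted p = 0.0556) and Hba-x without pair 2 (0.182) or pair 3 (0.164). The part of these cells in the results above was not tested.

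The control precipitate was set beside these groups. IgG minus input shares inputs 2 and 3 with the 4E-T comparison, and 4E-T minus IgG shares the 4E-T arrays, so the values stand side by side and are not independent of each other. In a limma fit of all 10 arrays with a term for the lower scale of pair 1, 1678 genes were higher with 4E-T than with IgG (7.57%) and 648 were lower (2.92%). Of the Zfp genes 115 of 367 were higher against IgG and 8 lower, while their median of IgG minus input was 0.08. Of the fast-turnover transcripts 15 of 46 were higher and 0 lower (IgG minus input, median -0.02), and of the Notch genes 13 of 37 were higher and 1 lower (0.07). Of 50 BMP and TGF-beta genes 10 were higher (0.08), of 17 hedgehog genes 4 (0.02; Disp1, Boc, Gas1 and Gli2) and of 33 proneural factors 7 (0.26), with 0 lower in each of these lists. FGF genes had 7 of 32 higher and Fgf13 lower (0.17), and P-body and decay genes 16 of 65 higher and Smg1, Pum2, Cnot7 and Pan3 lower (0.15). Of the frizzled genes 7 of 10 were higher and Fzd3 was lower (0.21), and of the Wnt ligands Wnt7a was higher (0.16). SCAN and BTB zinc finger genes had 16 of 65 higher and Zscan30 lower (0.11), forebrain patterning factors 6 of 26 (0.09) and Sox genes 6 of 19 (0.11), with 0 lower in the last 2 lists. Axon guidance genes had 9 of 67 higher than with IgG and 0 lower (0.18), and protocadherins had 4 of 35, Pcdh18, Pcdhb10, Pcdh10 and Pcdh17 (0.29). The rest of the Wnt pathway had 3 of 44, Axin2, Lgr4 and Sfrp1, with Dvl3 lower (0.09). Chromatin modifiers had 6 of 119 higher and 5 lower, Chd2, Kmt2a, Cbx5, Trim28 and Smarca4 (0.22). Hes5 was 1.85 ± 0.17 higher than with IgG, and of the 10 radial glia markers 7 were higher and 0 lower (-0.01). The longer list of 40 radial glia genes had 10 higher and Ccnd2, Ddah1, Ptprz1 and Psat1 lower (0.10). Intermediate progenitor markers had 4 of 10 higher and 0 lower (0.10). Of the 9 excitatory neuron markers only Slc17a6 was higher, and Dcx was lower (0.27).

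The IgG precipitates were also lower than input for ribosomal proteins and for nuclear-encoded mitochondrial proteins. The median of IgG minus input was -0.71 for cytosolic ribosomal proteins (-0.65 with 4E-T), -0.86 for oxidative phosphorylation (-0.75) and -0.66 for the proteasome (-0.66). It was lower than with 4E-T for mitochondrial ribosomal proteins, at -1.09 against -0.79, and for mitochondrial import, at -0.98 against -0.71. The same held for RNA polymerase subunits, at -0.65 against -0.38, and for rRNA processing, at -0.41 against -0.15. For initiation factors it was -0.34 (-0.28 with 4E-T), for snRNP and SF3 genes -0.43 (-0.49) and for glycolysis -0.32 (-0.35). SR and hnRNP factors were not lower with IgG, at 0.05 against -0.18. In the direct comparison, 3 of the 58 cytosolic ribosomal genes were higher with 4E-T than with IgG (Rpl32, Rplp1 and Rpl28) and 4 lower (Rpl6, Rps26, Rpl7 and Rps3). Of the mitochondrial ribosomal genes 15 of 71 were higher and Mrps9 and Mrpl24 lower, and of the oxidative phosphorylation genes 3 of 80 were higher (Atp5e, Ndufs8 and Sdhd) and Sdhc lower. Factors of rRNA processing had 15 of 57 higher than with IgG and Gnl2 lower, and RNA polymerase subunits 4 of 26 higher and 0 lower. SR and hnRNP factors had 4 of 47 higher and 10 lower. Rpl3 read 7.60, 7.42 and 7.53 with IgG, close to its level with 4E-T. The lower level of ribosomal and nuclear-encoded mitochondrial messages relative to tissue RNA was thus measured with both antibodies. Some noncoding lists had IgG above input where 4E-T was below it. The median of IgG minus input was 0.60 for snoRNA and scaRNA genes, of which 47 of 78 were lower with 4E-T than with IgG and 0 higher, and 0.26 for nuclear long noncoding RNAs, with 10 of 20 lower and 0 higher. All 3 IgG arrays of Xist, at 10.12, 9.98 and 9.90, exceeded every input and every 4E-T array, and Rny1 read 10.18, 10.38 and 10.83. Others were lower than input with IgG too, at -1.15 for Rpph1, -0.59 for Snhg7, -0.38 for Snhg12 and a median of -0.26 for snoRNA host genes. For the mitochondrial genome the median of IgG minus input was 0.18, and 9 of its 10 measured protein genes were lower with 4E-T than with IgG.

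Among features of the genes that the comparison did not use, the genomic span varied most with the difference. Spans came from the RefSeq table of the GRCm38.p6 build and were set against the difference for protein-coding genes with a mean level over 5. Of 503 genes spanning up to 3000 bases, 8.75% were higher and 36.2% lower, with a median of -0.35. Of 1096 genes spanning 100000 to 300000 bases, 32.9% were higher and 5.47% lower, with a median of 0.32. Spearman's rho across 9651 genes was 0.32, a description without a test, since genes are not replicates and all points share the same arrays. The rho of span with IgG minus input was 0.43, so the control showed this relation as well. Zfp genes had a median span of 17440 bases, near the 16152 of all genes, and cytosolic ribosomal protein genes one of 3152 bases. The GC share of the promoter window, from 250 bases before the annotated start to 50 after it, was related more weakly, with rho 0.15 over 7916 genes. Its rho with IgG minus input was 0.13, so this relation too was present in the control. Above 70% GC 30.9% of genes were higher and 7.19% lower, against 18.7% and 22.0% between 50 and 60%.

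**Figure D5:**
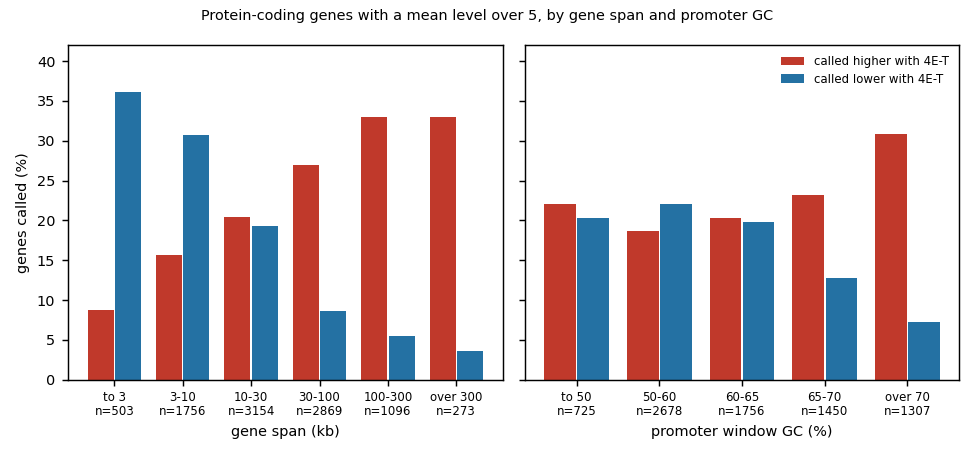
Percentage of protein-coding genes with a mean level over 5 that were called higher (red) or lower (blue) with 4E-T, by genomic span in kb on the left and by the GC share of the promoter window on the right, with the number of genes under each bin. The red bars rise and the blue bars fall from the shortest to the longest genes, from 8.75% to 33.0% and from 36.2% to 3.66%.

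Messages of ribosomal proteins often start with C followed by pyrimidines, a terminal oligopyrimidine tract through which their translation is controlled. The annotated start was therefore read in the RefSeq promoter table (GRCm38.p6), and a tract was counted where the start base is C and the next 4 bases are C or T on the strand of the gene. It was found in 11 of 45 ribosomal protein genes with an entry (24.4%), in 2.86% of 7916 protein-coding genes with a mean level over 5 and in 2.51% of all 32851 promoter entries. Ribosomal genes with the tract had a median difference of -0.48, with 5 of 11 lower, and those without it one of -0.71, with 25 of 34 lower. Over all 226 genes with the tract, 21.7% were higher and 17.7% lower, which is close to the 22.2% and 17.2% of the 7690 genes without it. Windows of 30 bases before the annotated start and 20 from it are shown for a pair of the 12 lowest and a pair of the 12 highest genes, with the first 5 bases from the start in capitals. They lie at chr7:109519165-109519214 (Rpl27a, plus strand), chr3:90213629-90213678 (Rps27, minus strand), chr4:154960893-154960942 (Hes5, plus strand) and chr17:32965801-32965850 (Zfp472, plus strand).
Rpl27a: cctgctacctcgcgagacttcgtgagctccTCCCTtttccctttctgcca
Rps27: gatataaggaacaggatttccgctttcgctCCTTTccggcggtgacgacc
Hes5: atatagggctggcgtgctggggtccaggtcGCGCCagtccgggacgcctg
Zfp472: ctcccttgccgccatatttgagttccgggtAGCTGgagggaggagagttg

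Rps27 carried the tract at its annotated start. Rpl27a, Hes5 and Zfp472 did not, although the start of Rpl27a lies within a longer run of pyrimidines. Rpl27a read 5.32, 5.57 and 5.42 with 4E-T and 7.70, 7.14 and 7.29 in the inputs, a difference of -1.94 ± 0.17, and Rps27 read 4.31, 5.15 and 4.92 against 6.65, 6.56 and 6.97, a difference of -1.93 ± 0.18. Neither gene overlapped between precipitate and input. IgG minus input was -1.63 for Rpl27a and -2.25 for Rps27. Whether the tract bears on the difference was not tested, as a match at the annotated base can miss a tract that starts nearby.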

How the data were processed

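Arrays of the Affymetrix Mouse Gene 2.0 ST type were used. The deposited table holds log2 intensities, which the authors obtained by RMA with the Expression Console software according to the submitters' processing notes, while versions are not given in the sources used here. Of 41345 probe sets, 23521 had 1 gene symbol in the platform annotation, 1814 had several and 16010 had none. The RefSeq gene table (GRCm38.p6) held 23477 of the single-symbol probe sets, and 0 symbols were updated. Where a gene had several probe sets (1082 genes), that of highest mean level stood for it, which left 22180 genes. No detection calls were used, and precision is limited by the number of arrays.

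Paired differences were fitted on the log2 values of the 6 arrays in R 4.3.3 (limma 3.58.1, lmFit and eBayes at default settings) with the pair as a term. Adjustment was by Benjamini-Hochberg over all genes, with a threshold of 0.05. Errors are standard errors of that fit. The design text speaks of corresponding inputs. Deviations from group means of same-numbered 4E-T and input arrays correlated across genes at 0.61, 0.32 and 0.36, above the criterion of 0.1. But 4E-T 2 with input 3 (0.34) and 4E-T 3 with input 2 (0.29) passed it too. The check thus sets apart only pair 1, which lies on its own scale, and cannot decide the numbering of pairs 2 and 3. Fitted with no replicate block, added after seeing the data, pairs 2 and 3 gave 4675 called genes, against 4562 with it. IgG minus input is the mean over replicates 2 to 4 and has no test. The 4E-T minus IgG fit used all 10 arrays. The fits were checked on simulated data. Plots were made in matplotlib 3.10.9 (Python 3.11.15).

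The 62 gene lists, their members and the naming rule were chosen with earlier results of these data known, and some list definitions were tightened after values were seen. The rule took the 12 highest and 12 lowest called genes with the same sign in all pairs, without predicted or clone-named genes, chemoreceptors and small RNAs (microRNAs, snoRNAs, scaRNAs). It added up to 4 members from the ends of each list, and a fixed set with Eif4enif1, Eif4e, Ddx6, Sox2, Pax6, Eomes, Tbr1, Dcx and related genes. Members of small counts were named as well. Lists are described by counts and medians with no test of the list.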

Additional observations from a re-analysis of the deposited data

How the results depend on the processing

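The 3 pairs rest on shared numbers and on a lower scale in pair 1, and the pairing was kept as a block. With no replicate block, limma called 0 genes in total, 0 higher and 0 lower, with 2667 at an unadjusted p under 0.05, and the 24 leading genes lost their calls. By its construction that fit puts the scale of pair 1 into the error. After quantile normalization across the 6 arrays, added after seeing the data, the fit with no replicate block called 2751 genes, 1324 higher and 1427 lower, and 2737 of the 4608 called genes were called in the same direction. Leaving out 1 pair gave 3001 to 4562 called genes, 1608 to 2586 higher and 1393 to 1976 lower, with the lowest counts without pair 3. At an adjusted p under 0.01, 2387 genes were called, 1285 higher and 1102 lower. When genes and all other probe sets were adjusted together, also added after seeing the data, 2097 genes were called, 1143 higher and 954 lower. That fit took in the added probe sets as well as the adjustment, and 5768 genes had an unadjusted p under 0.05, against 6966 as reported. Centred medians, quantile normalization with the block, the upper part of genes by level, mean of probe sets, robust eBayes, and 7 arrays with input 4 gave 4465 to 5337 called genes. The higher share was 54.3% of calls as reported and 48.5% after quantile normalization. Under each alternative other than the fit of all 6 arrays on deposited values with no replicate block, the 24 leading genes kept their calls. The 39 lists with a median beyond 0.2 kept its sign under all alternatives. Genes at a mean level up to 4 were seldom called, so a difference in dim genes was often not detectable with 3 pairs.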

Other observations

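The array also carried 17634 probe sets without a single gene symbol. In the fit adjusted over genes and these probe sets together, 240 of them were higher with 4E-T and 1229 lower, and 4317 had an unadjusted p under 0.05. What they measure was not analysed here.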
